A study of Drosophila melanogaster with 12 samples.

Results

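The genes described here are 10 components of the fly's bacterial sensing and NF-kappaB pathways. They include 5 peptidoglycan recognition proteins (PGRP-SA, PGRP-SD, PGRP-LB, PGRP-LC and PGRP-LE) and the adaptor imd. The others are the NF-kappaB factors Rel, Dif and dl, and cact, the inhibitor of Dif and dl. All 10 were chosen by FlyBase symbol, and each was found once among the 17807 genes counted. RNA was counted per gene in salivary glands dissected from Drosophila melanogaster prepupae. There were 4 groups of 3 libraries: E93 mutants at 14 h after pupariation, controls at 14 h, mutants at 12 h and controls at 12 h. Mutants carried the allele pair E93Δ12/E93Δ13 and controls 1 copy of E93Δ1 over a wild-type chromosome, so the controls also carry an E93 allele. All animals carried w1118 and fkh>GFP, in which the fkh driver marks salivary gland cells, and were raised on cornmeal molasses food with no treatment. E93 (Eip93F) encodes a transcription factor induced by ecdysone, the steroid hormone that times metamorphosis.

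PGRPs bind peptidoglycan, the bacterial cell wall polymer, and feed a pair of signalling routes. In the Imd route the receptors PGRP-LC and PGRP-LE act through the adaptor Imd and a caspase to release Relish, the protein of Rel. In the Toll route secreted PGRPs start a protease cascade that cleaves the ligand Spätzle, and Toll then leads to the destruction of Cactus, the protein that holds Dif and Dorsal in the cytoplasm. Both routes are best known from the fat body, gut and blood cells, where they drive antimicrobial peptide genes. The prepupal salivary gland is a secretory tissue that is destroyed after a late pulse of ecdysone.

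Total counts per library ran from 6977403 to 9497317. Levels below are in CPM, counts per 1e+06 counts, scaled with TMM, a method that assumes most genes keep their level, so a floor of 3 counts in a library was 0.281 to 0.519 CPM. That floor covers counting error only. All 8 salivary gland markers checked were counted in each group, but they moved with genotype and time. Their summed level was 155 to 177 CPM in 14 h mutants against 186 to 213 CPM in 14 h controls, without overlap, and 185 to 224 CPM in 12 h mutants against 105 to 222 CPM in 12 h controls. Of the 8, 1 was called higher in mutants at 14 h and 4 at 12 h, with median log2 fold changes of 0.297 and 1.162. The part of these shifts in the genotype results was not tested. Eip93F itself stood at 1960 to 2020 CPM in 14 h mutants against 776 to 894 CPM in 14 h controls, and at 3870 to 4310 CPM in 12 h mutants against 1180 to 2080 CPM in 12 h controls. Such counts cannot tell whether a mutant gene still yields protein. Among markers of other tissues, mesh, a gut junction gene, stood at 135 CPM in the 12 h mutant replicate 1 and 56.7 CPM in the 14 h mutant replicate 2, against 12.5 CPM or less in each other library. Gut signal was not confined to these libraries. Summed over 14 gut markers, levels were 213 to 529 CPM in 12 h mutants against 125 to 200 CPM in 12 h controls. At 14 h they were 259 to 472 CPM in mutants against 44.8 to 52.3 CPM in controls. Mutants thus lay above controls of their age without overlap. The part of gut RNA in the genotype results was not tested. The 12 h control replicate 1 lay between the other 12 h controls and the 14 h controls on the first principal component. The labels do not say whether replicates came from separate animals or collections, so p-values measure the spread between these samples. In bulk glands, fewer cells of a type and less RNA per cell cannot be told apart.

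The members differed widely in level. Per kilobase of exon, Dif had the highest level in 12 h controls, at 398 ± 68.7 CPM per kilobase (SD, n = 3). Next came cact at 278 ± 21.8, PGRP-LC at 121 ± 19.7, Rel at 46.6 ± 21 and imd at 42.6 ± 2.71 CPM per kilobase. PGRP-LE (7.71 CPM per kilobase), PGRP-LB (1.81), PGRP-SD (1.6), dl (1.45) and PGRP-SA (0.57) were far lower. In 14 h controls the order changed at the top, with cact at 154 ± 7.86, PGRP-LC at 92.1 ± 6.57 and Dif at 78.5 ± 1.94 CPM per kilobase. Thus a receptor, an adaptor and factors of both routes were present as RNA, while the secreted sensors PGRP-SA and PGRP-SD were near the floor.

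**Figure D1:**
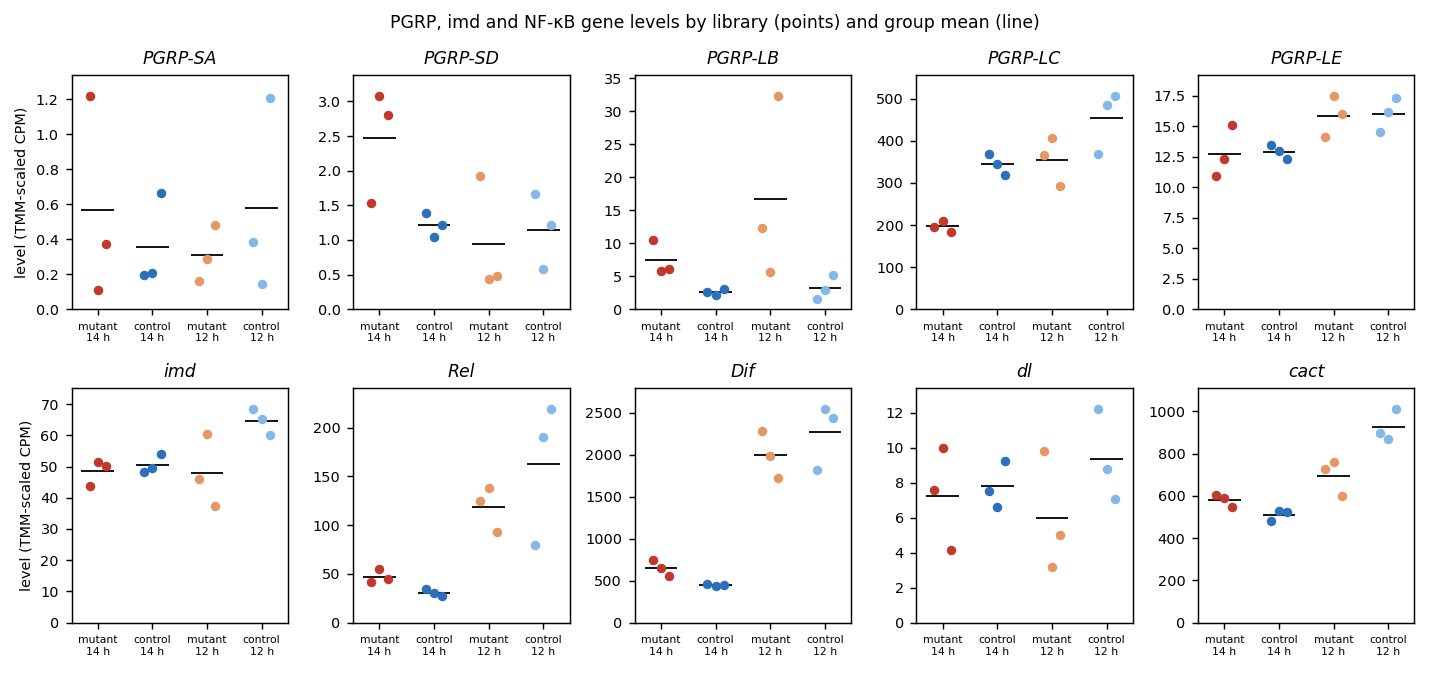
Each panel plots the level of 1 gene in TMM-scaled CPM for the 12 libraries (points) with the group mean (line); each vertical axis starts at 0 and has its own scale. Rel and Dif stand lower at 14 h than at 12 h in both genotypes, PGRP-LC is lowest in 14 h mutants (184 to 210 CPM), and PGRP-LB is higher in every mutant library than in the controls of its time.

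Of the 10 members, 9 passed the filter on low counts and were tested. PGRP-SA, a secreted sensor of Gram-positive peptidoglycan (FBgn0030310, chromosome X, 11561643 to 11562779, plus strand), did not pass. It had 12, 1 and 4 counts in 14 h mutants against 2, 2 and 6 counts in 14 h controls, and 1, 2 and 3 counts in 12 h mutants against 3, 1 and 7 counts in 12 h controls. All 4 groups overlapped, and no difference was detectable at this depth.

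The comparison of genotypes sets E93 mutant glands against control glands of the same age. At 14 h PGRP-LC was lower in mutants and was the member called there. At 12 h PGRP-LB was higher in mutants and was the member called there. Tests are edgeR's quasi-likelihood test fitted to 7584 genes, with p adjusted by the Benjamini-Hochberg method over all of them and a call at an adjusted p under 0.05. At 14 h 1 of 9 members was called (0 higher and 1 lower), against 15.2% of all genes tested. At 12 h 1 of 9 was called (1 higher and 0 lower), against 15.8% of all genes. Neither share stands above its background. The members' median log2 fold change was 0.18 at 14 h and -0.36 at 12 h, beside 0.05 and 0.01 for all genes tested.

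PGRP-LC, the transmembrane receptor of the Imd route (FBgn0035976, chromosome 3L, 9338810 to 9348336, plus strand), had 196, 210 and 184 CPM in 14 h mutants against 369, 345 and 320 CPM in 14 h controls. The groups did not overlap, and each mutant library was below each control. The log2 fold change was -0.81 (SE 0.17, edgeR adjusted p = 0.00677), or 0.57-fold. At 12 h it had 366, 406 and 292 CPM in mutants against 369, 486 and 507 CPM in controls, and the ranges overlapped at the 12 h control replicate 1. The log2 fold change was -0.36 (SE 0.17, edgeR adjusted p = 0.188). Without that control library it was -0.54 (edgeR adjusted p = 0.0459). The 14 h call was kept when any 1 of the 12 libraries was left out, with values of -0.87 to -0.76. The counts pool 10 annotated transcripts, some of which encode different peptidoglycan-binding domains, and these cannot be separated here.

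PGRP-LE, a sensor that works inside the cell (FBgn0030695, chromosome X, 15801153 to 15803880, minus strand), was at 10.9, 12.3 and 15.1 CPM in 14 h mutants against 13.5, 13 and 12.3 CPM in 14 h controls. Its 12 h levels were 14.1, 17.5 and 16 CPM in mutants against 14.5, 16.2 and 17.3 CPM in controls. The groups overlapped at both times, and the log2 fold changes were -0.02 (SE 0.17) at 14 h and -0.01 (SE 0.18) at 12 h. The ratio of PGRP-LC to PGRP-LE per kilobase, which does not depend on how libraries are scaled, was 9.93, 9.46 and 6.75 in 14 h mutants against 15.2, 14.7 and 14.4 in 14 h controls. These groups did not overlap (exact permutation test, two-sided, p = 0.1, the smallest that 3 against 3 libraries can give). The 12 h ratios were 14.4, 12.9 and 10.1 in mutants against 14.1, 16.6 and 16.2 in controls (exact permutation p = 0.2).

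PGRP-LC lies in a cluster on 3L, 473 bp downstream of PGRP-LA and 1272 bp upstream of PGRP-LF, all on the plus strand. PGRP-LA, a transmembrane family member reported to promote Imd signalling, was close to PGRP-LC in level and fell with it at 14 h. It was at 164, 150 and 151 CPM in 14 h mutants against 198, 226 and 252 CPM in 14 h controls, which is -0.54 on the log2 scale (SE 0.16, edgeR adjusted p = 0.0408). That call was kept in 3 of 12 fits with 1 library left out, those without the 12 h control replicate 1, the 12 h mutant replicate 2 or the 12 h mutant replicate 3, and in the others the edgeR adjusted p ran from 0.05 to 0.158. With a replicate block it was also lost (-0.54, edgeR adjusted p = 0.0621). PGRP-LF, which lacks an intracellular signalling part and damps the route, stood at 36.4 ± 3.99 CPM in 14 h mutants and 31 ± 0.871 CPM in 14 h controls (SD, n = 3 each), and did not pass the test (log2 fold change 0.23). Of its exon length 44.4% is shared with UGP on the other strand, and the strand setting of the counting is not stated.

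PGRP-LB (FBgn0037906, chromosome 3R, 11452849 to 11460552, minus strand) encodes an amidase that cuts peptidoglycan and so restrains the Imd route, of which it is also a target. It was at 10.5, 5.83 and 6.09 CPM in 14 h mutants against 2.58, 2.09 and 3 CPM in 14 h controls. Its 12 h levels were 12.3, 5.58 and 32.3 CPM in mutants against 1.54, 2.89 and 5.19 CPM in controls. Every mutant library lay above every control of its time, but the 12 h mutants were far apart. The log2 fold change was 2.41 at 12 h (SE 0.59, edgeR adjusted p = 0.0158) and 1.54 at 14 h (SE 0.58, edgeR adjusted p = 0.0949). The 12 h call ended without the mutant replicate 3, which has the highest value (1.48, edgeR adjusted p = 0.075), the control replicate 1 (1.98, 0.0558) or the control replicate 2 (2.29, 0.0572). It also ended in a fit of the 12 h groups alone (2.39, edgeR adjusted p = 0.0944). In a fit of the 14 h groups alone PGRP-LB was called at 14 h (1.53, edgeR adjusted p = 0.0039), as it was without the 12 h mutant replicate 3 (1.51, 0.0379); over all alternatives at 14 h the adjusted p ran from 0.0039 to 0.275. The summed level of 14 gut markers, a tissue in which PGRP-LB is known to act, was 213 to 529 CPM in 12 h mutants against 125 to 200 CPM in 12 h controls, and 259 to 472 CPM in 14 h mutants against 44.8 to 52.3 CPM in 14 h controls. Of these 14 markers 6 were at 0 in all 14 h mutants and 6 in all 14 h controls, and 4 in all 12 h mutants and 7 in all 12 h controls. The gut marker sums of the 12 h mutants were 529, 417 and 213 CPM in replicates 1, 2 and 3. Without the libraries with the highest gut marker sum of each mutant group (replicate 1 at 12 h, replicate 2 at 14 h), left out after seeing the data, PGRP-LB was called at 12 h (2.59, edgeR adjusted p = 0.0337), and without these and the 12 h control replicate 1 it was not (2.16, 0.0645). Both remaining 12 h mutants still had gut marker sums above each 12 h control, so the part of gut RNA in this result was not tested.

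PGRP-SD, a secreted PGRP that takes part in both routes (FBgn0035806, chromosome 3L, 7651180 to 7651900, plus strand), was near the floor. It was at 1.53, 3.08 and 2.81 CPM in 14 h mutants against 1.39, 1.05 and 1.22 CPM in 14 h controls, with no overlap (log2 fold change 1.01, SE 0.51, edgeR adjusted p = 0.224). Among 12 h glands it was at 1.92, 0.43 and 0.484 CPM in mutants against 1.66, 0.577 and 1.21 CPM in controls, and the groups overlapped (-0.31, SE 0.6, edgeR adjusted p = 0.773). It rests on 3 to 30 counts per library. The summed level of 7 fat body markers was 416, 525 and 678 CPM in 14 h mutants against 499 to 547 CPM in 14 h controls, with overlap. Of the 7, 1 was called higher in 14 h mutants and 0 lower, with a median log2 fold change of 0.331. The part of fat body RNA in the PGRP-SD result was not tested.

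The other PGRP genes held the largest genotype difference of the family. PGRP-SB2, a small secreted PGRP (FBgn0043577, chromosome 3L, 16726541 to 16727288, plus strand), was at 11700, 15500 and 17900 CPM in 14 h mutants against 1360, 1010 and 1110 CPM in 14 h controls. The log2 fold change was 3.7 (SE 0.34, edgeR adjusted p = 1.55e-05), or 13-fold. The 12 h levels were 3900, 5060 and 3360 CPM in mutants against 2000, 866 and 1030 CPM in controls (1.66, SE 0.31, edgeR adjusted p = 0.00399). All mutant libraries were above all controls of their time, and both calls were kept under each of the 22 alternatives run. Its neighbour PGRP-SB1, an amidase gene on the minus strand 10 bp away, was at 4.18, 5.5 and 4.59 CPM in 14 h mutants against 0.991, 0.628 and 0.888 CPM in 14 h controls (2.48, SE 0.39, edgeR adjusted p = 0.000933). At 12 h PGRP-SB1 had a log2 fold change of 1.21 (edgeR adjusted p = 0.047), a call kept only without the 12 h control replicate 1 or the 12 h mutant replicate 1 when 1 library was left out. With a replicate block its adjusted p was 0.0759. Per kilobase PGRP-SB2 stood 494- to 3530-fold above PGRP-SB1, and how many PGRP-SB1 counts come from PGRP-SB2 was not tested. Of the 8 other PGRP genes 4 were tested, with 2 higher and 1 lower in mutants at 14 h and 2 higher at 12 h. PGRP-SC1a and PGRP-SC1b had 0 counts in all libraries; they are near-identical copies, and reads that match both may not have been counted.

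**Figure D2:**
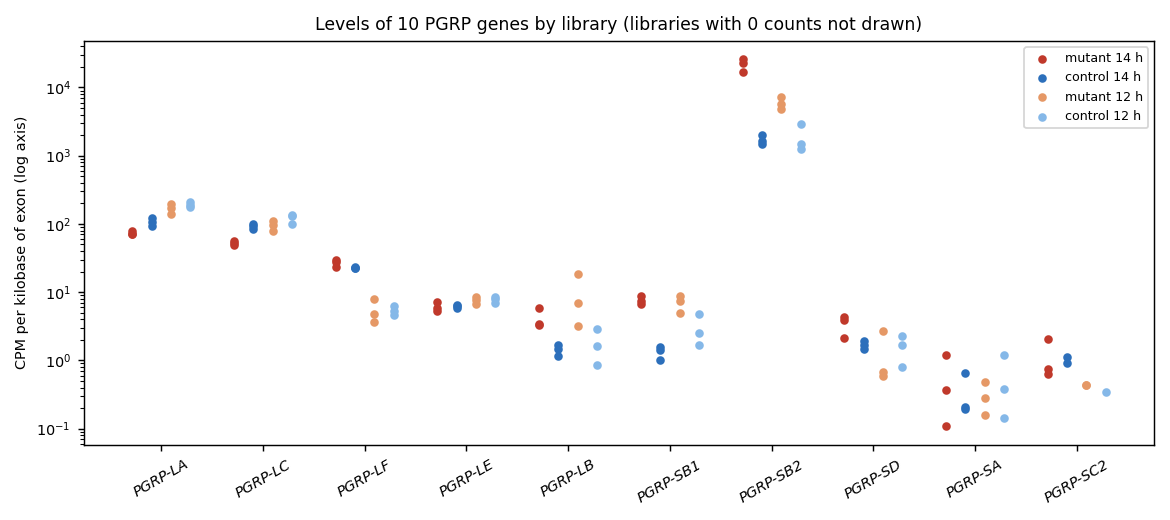
Levels of 10 PGRP genes in each library, in CPM per kilobase of exon on a log axis, with colours for the 4 groups; libraries with 0 counts are not drawn. PGRP-SB2 lies above every other gene of the family in each group and is highest in 14 h mutants, with a mean of 21900 CPM per kilobase against 1680 in 14 h controls.

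The adaptor imd, a death-domain protein that joins the PGRP receptors to the caspase step (FBgn0013983, chromosome 2R, 18409796 to 18413599, minus strand), was at 43.7, 51.6 and 50.3 CPM in 14 h mutants against 48.2, 49.5 and 53.9 CPM in 14 h controls (log2 fold change -0.06, SE 0.17). Its 12 h levels were 46, 60.4 and 37.3 CPM in mutants against 68.4, 65.2 and 60.2 CPM in controls, and the ranges just met (-0.43, SE 0.18, edgeR adjusted p = 0.119). Without the 12 h mutant replicate 2 the 12 h value was -0.67 and passed (edgeR adjusted p = 0.0211).

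Downstream of imd, 1 of 11 Imd signalling genes was called at 14 h and 3 at 12 h (1 higher and 2 lower), with medians of 0.02 and 0.00. The gene higher at both times was ben, the ubiquitin-conjugating enzyme that builds the chains activating Tak1. It had 1160, 1390 and 1550 CPM in 14 h mutants against 497, 540 and 522 CPM in 14 h controls (log2 fold change 1.39, SE 0.15, edgeR adjusted p = 5.36e-05). At 12 h ben had 790, 837 and 785 CPM in mutants against 465, 461 and 468 CPM in controls (0.79, SE 0.15, edgeR adjusted p = 0.00382). Both ben calls were kept when any 1 library was left out. IKKbeta, a kinase that phosphorylates Relish, and akirin, a nuclear cofactor of Relish, were lower at 12 h, by 0.79 and 0.45 on the log2 scale (edgeR adjusted p = 0.0359 and 0.0432). Leaving out 1 library ended the IKKbeta call in 7 of 12 fits and the akirin call in 11 of 12, all but that without the 12 h control replicate 1. With a replicate block the akirin p was 0.0647. For IKKbeta the 7 were those without the 12 h control replicates 2 or 3, the 12 h mutant replicates 1 or 2, the 14 h control replicates 1 or 2, or the 14 h mutant replicate 1.

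Among genes that restrain the Imd route, 1 of 9 tested was higher at each time, and it was the same gene, pirk, whose protein binds PGRP-LC and Imd. It stood at 8.06, 8.68 and 12.7 CPM in 14 h mutants against 1.88, 3.14 and 3.22 CPM in 14 h controls (log2 fold change 1.84, SE 0.44, edgeR adjusted p = 0.0134). Earlier, at 12 h, it stood at 46.8, 39.1 and 71.9 CPM in mutants against 5.51, 13.1 and 21.1 CPM in controls (2, SE 0.41, edgeR adjusted p = 0.00627). The groups did not overlap at either time. The 14 h call ended without the control replicate 1 (1.62, edgeR adjusted p = 0.0715) or the mutant replicate 3 (1.6, 0.0608), and the 12 h call in a fit of the 12 h groups alone (1.97, 0.052). As with PGRP-LB, the highest value was in the 12 h mutant replicate 3.

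The NF-kappaB factors themselves did not pass the genotype test. Dif (FBgn0011274, chromosome 2L, 17413248 to 17433161, minus strand) had 746, 649 and 552 CPM in 14 h mutants against 460, 440 and 441 CPM in 14 h controls, with every mutant above every control (log2 fold change 0.54, SE 0.19, edgeR adjusted p = 0.0733). At 12 h Dif had 2280, 1980 and 1720 CPM in mutants against 1820, 2540 and 2440 CPM in controls, and the groups overlapped (-0.18, SE 0.19). Rel (FBgn0014018, chromosome 3R, 9044183 to 9047977, minus strand) had 41.6, 54.7 and 44.6 CPM in 14 h mutants against 34.2, 30.3 and 27.3 CPM in 14 h controls, again with no overlap (0.62, SE 0.31, edgeR adjusted p = 0.213). At 12 h Rel had 125, 138 and 92.9 CPM in mutants against 79.8, 190 and 219 CPM in controls (-0.46, SE 0.3, edgeR adjusted p = 0.34). The 12 h control replicate 1, which lies towards the 14 h libraries, had the lowest Rel value of the 12 h libraries. Without it Rel was lower in mutants at 12 h (-0.84, edgeR adjusted p = 0.0135) and higher at 14 h (0.58, 0.0404), and Dif was higher at 14 h (0.5, 0.039). A fit of the 14 h groups alone also called Rel (0.6, edgeR adjusted p = 0.0101) and Dif (0.52, 0.0151). Over all alternatives the 14 h adjusted p ran from 0.0101 to 0.487 for Rel and from 0.0151 to 0.23 for Dif, and for Rel at 12 h from 0.0135 to 0.736.

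The third factor, dl, acts in the embryo's axis as well as in immunity (FBgn0260632, chromosome 2L, 17436830 to 17450364, minus strand). It lies 3668 bp from Dif on the same strand, with 2 other protein-coding genes in that interval, and was counted at a far lower level. It had 7.55, 10 and 4.12 CPM in 14 h mutants against 7.53, 6.59 and 9.22 CPM in 14 h controls, and 9.78, 3.15 and 5 CPM in 12 h mutants against 12.2, 8.8 and 7.09 CPM in 12 h controls. The groups overlapped at both times (log2 fold change -0.11, SE 0.39, at 14 h and -0.66, SE 0.41, at 12 h). Per kilobase, Dif exceeded dl by 73.3- to 151-fold in 14 h mutants, 54.1- to 75.4-fold in 14 h controls, 263- to 711-fold in 12 h mutants and 169- to 388-fold in 12 h controls.

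The inhibitor cact (FBgn0000250, chromosome 2L, 16313036 to 16326207, minus strand) had 603, 588 and 546 CPM in 14 h mutants against 481, 529 and 523 CPM in 14 h controls (log2 fold change 0.18, SE 0.15). In 12 h glands it had 729, 759 and 600 CPM in mutants against 896, 869 and 1010 CPM in controls (-0.41, SE 0.15, edgeR adjusted p = 0.0819). The groups did not overlap at either time, and the mutants were the higher group at 14 h and the lower one at 12 h. DESeq2 called the 12 h difference (-0.43, DESeq2 adjusted p = 0.0239); over all alternatives the adjusted p ran from 0.0239 to 0.241. The ratio of Dif to cact per kilobase in each library was 0.722, 0.644 and 0.59 in 14 h mutants against 0.559, 0.486 and 0.493 in 14 h controls, with no overlap (exact permutation test, two-sided, p = 0.1, the smallest possible). At 12 h the ratio was 1.83, 1.52 and 1.68 in mutants against 1.18, 1.71 and 1.41 in controls (exact permutation p = 0.3). Dif thus exceeded cact per kilobase in each 12 h library and was below it in each 14 h library.

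**Figure D3:**
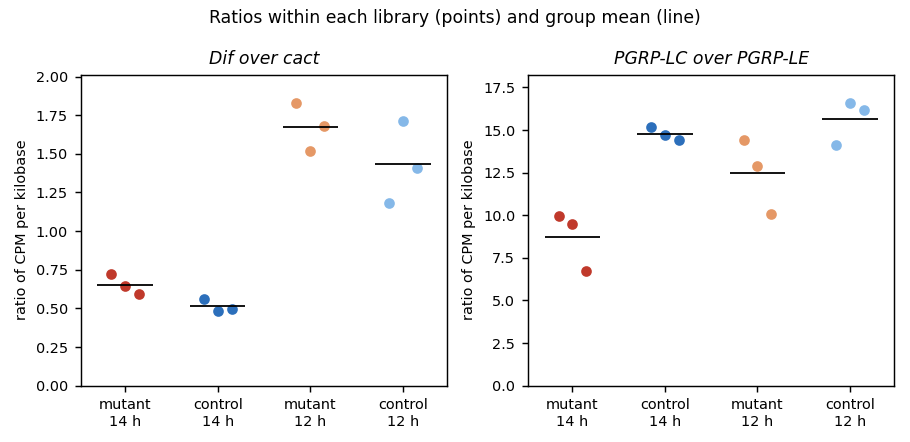
Ratios of CPM per kilobase between 2 genes within each library (points), with group means (lines), for Dif over cact and PGRP-LC over PGRP-LE; the axes start at 0. The Dif to cact ratio is 0.486 to 0.722 at 14 h and 1.18 to 1.83 at 12 h, and the PGRP-LC to PGRP-LE ratio is 6.75 to 9.93 in 14 h mutants, below all other libraries.

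Counting overlap alone, 6 of 9 members had groups that did not overlap at 14 h (5 higher and PGRP-LC lower in mutants), against 42.5% of all genes tested. At 12 h these were 2 of 9, PGRP-LB higher and cact lower, against 27.7% of all genes. For the difference between the genotype effects at 14 h and at 12 h, edgeR called 0 of 9 members, against 2.72% of all genes (206 genes). With 1 library left out, the all-gene calls ran from 105 to 430 for this difference and from 701 to 1586 for genotype at 14 h, where all libraries gave 1153, and both were highest without the 12 h control replicate 1. DESeq2 and limma voom also called 0. An unadjusted edgeR p under 0.05 was found for 1027 of the 7584 genes tested and for 3 of the 9 members. These were cact (0.59, edgeR adjusted p = 0.205), Dif (0.72, 0.22) and Rel (1.07, 0.271). Without the 12 h control replicate 1, Rel (1.42, edgeR adjusted p = 0.00817) and Dif (0.87, 0.0483) were called, and over all alternatives the adjusted p ran from 0.00817 to 0.611 for Rel and from 0.0483 to 0.451 for Dif.

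**Figure D4:**
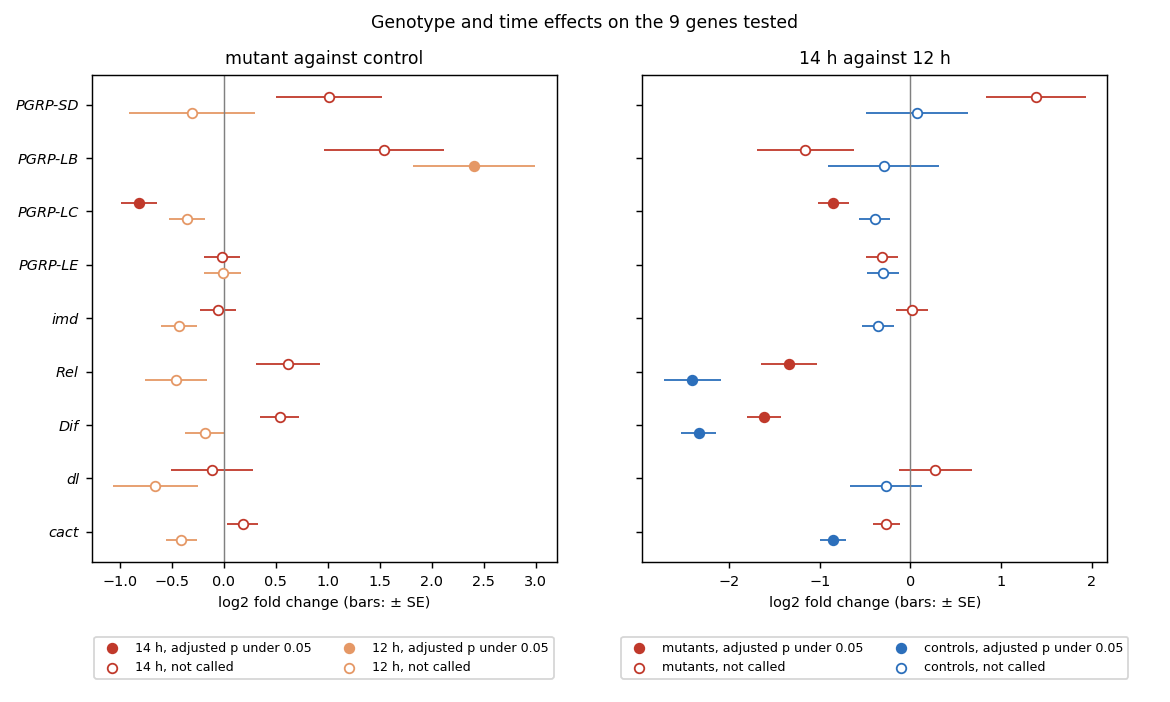
Log2 fold changes (points) with their SE (bars) for the 9 members tested, mutant against control at 14 h and 12 h on the left and 14 h against 12 h in mutants and controls on the right; filled points passed an edgeR adjusted p under 0.05. PGRP-LC at 14 h and PGRP-LB at 12 h are filled on the left, and Rel and Dif are filled in both genotypes on the right.

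On the Toll side, 1 of 8 genes of the extracellular cascade was called at 14 h and 3 at 12 h (1 higher and 2 lower), with medians of -0.11 and -0.47. The gene with the smallest p was spz, which encodes the Toll ligand Spätzle (FBgn0003495, chromosome 3R, 27064990 to 27070070, minus strand). It was at 19.6, 18.3 and 28.2 CPM in 12 h mutants against 68.3, 147 and 153 CPM in 12 h controls (log2 fold change -2.48, SE 0.29, edgeR adjusted p = 0.000155). At 14 h spz was at 21.3, 21.7 and 16.9 CPM in mutants against 20.4, 22.1 and 21.4 CPM in controls, and the groups overlapped. The protease gene grass was lower in mutants at both times, with 166 ± 6.83 CPM in 14 h mutants and 546 ± 9.54 CPM in 14 h controls (SD, n = 3 each; -1.72, edgeR adjusted p = 0.033), and 21.3, 39.7 and 19 CPM in 12 h mutants against 234, 48.9 and 55.4 CPM in 12 h controls (-2.08, edgeR adjusted p = 0.016). The 14 h call ended when any 1 of the 6 14 h libraries was left out (edgeR adjusted p of 0.0767 to 0.105). At 12 h it ended without the mutant replicate 1 (-1.94, 0.0626) or 3 (-1.86, 0.0555), and the value was -1.02 without the control replicate 1. The serpin gene nec was higher at 12 h (1.29, edgeR adjusted p = 0.0394), with 0.61 and an adjusted p of 0.173 without the mutant replicate 2; its call was kept only without the 12 h mutant replicates 1 or 3 or the 14 h mutant replicates 1 or 2, and was lost with a replicate block (0.0646).

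Among the receptor and cytoplasmic Toll genes 1 of 9 was called at each time, and it was Pli, which encodes Pellino, a partner of the kinase Pelle. Pli was at 687, 559 and 571 CPM in 14 h mutants against 199, 223 and 229 CPM in 14 h controls (log2 fold change 1.48, SE 0.17, edgeR adjusted p = 9.26e-05), a call kept when any 1 library was left out. At 12 h it was at 943, 937 and 915 CPM in mutants against 477, 588 and 697 CPM in controls (0.67, SE 0.17, edgeR adjusted p = 0.0184). The 12 h call ended without the control replicate 1 (0.48, edgeR adjusted p = 0.0639), the control replicate 2 (0.63, 0.0843) or any 1 of the 12 h mutants (0.0589 to 0.0703). The list's medians were 0.27 at 14 h and 0.085 at 12 h. In the list of JNK pathway genes, here the JNK branch, 1 of 8 genes was lower at each time. It was the kinase gene msn at 14 h (-0.78, edgeR adjusted p = 0.0134) and the kinase gene Mkk4 at 12 h (-0.58, edgeR adjusted p = 0.0322). The JNK branch medians were 0.127 at 14 h and -0.109 at 12 h. At 14 h 6 of the 8 had an unadjusted edgeR p under 0.05, against 2113 of all 7584 genes tested. Without the 12 h control replicate 1 the JNK branch had 6 calls at 14 h and the cytoplasmic Toll list 4. Without any other single library these numbered 0 to 2 and 1 to 2. The msn call ended without the 14 h control replicate 2, mutant replicate 2 or mutant replicate 3 (edgeR adjusted p of 0.0514 to 0.0675). The Mkk4 call ended without the 12 h control replicate 1, the 12 h mutant replicates 1 or 3 or the 14 h control replicate 1 (0.0531 to 0.0992), and with a replicate block (0.0575).

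Of the antimicrobial peptide genes, which are targets of both routes, 3 of 11 tested were called higher in mutants at 14 h and 2 at 12 h. None was called lower, and the medians were -0.23 and -0.69. The summed level of 14 such genes was 29300 to 41300 CPM in 14 h mutants and 36000 to 51100 CPM in 14 h controls, with overlap. It was 12500 to 21800 CPM in 12 h mutants and 22100 to 38000 CPM in 12 h controls, lower in mutants without overlap. The genes called higher at 14 h were AttD (2.05, edgeR adjusted p = 0.0195), Drs and Mtk. The AttD call ended without the 14 h control replicates 2 or 3 or the 14 h mutant replicates 1 or 3 (edgeR adjusted p of 0.0534 to 0.112). The 12 h calls were AttD (2.12, edgeR adjusted p = 0.0397) and Drs (1.7, 0.0493, or 0.092 with a replicate block). They were made in 7 of 20 alternatives for AttD and 6 of 22 for Drs. At 14 h Mtk stood at 5.92, 3.74 and 4.49 CPM in mutants against 0.297, 0 and 0.444 CPM in controls (edgeR adjusted p = 0.000512).

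**Figure D5:**
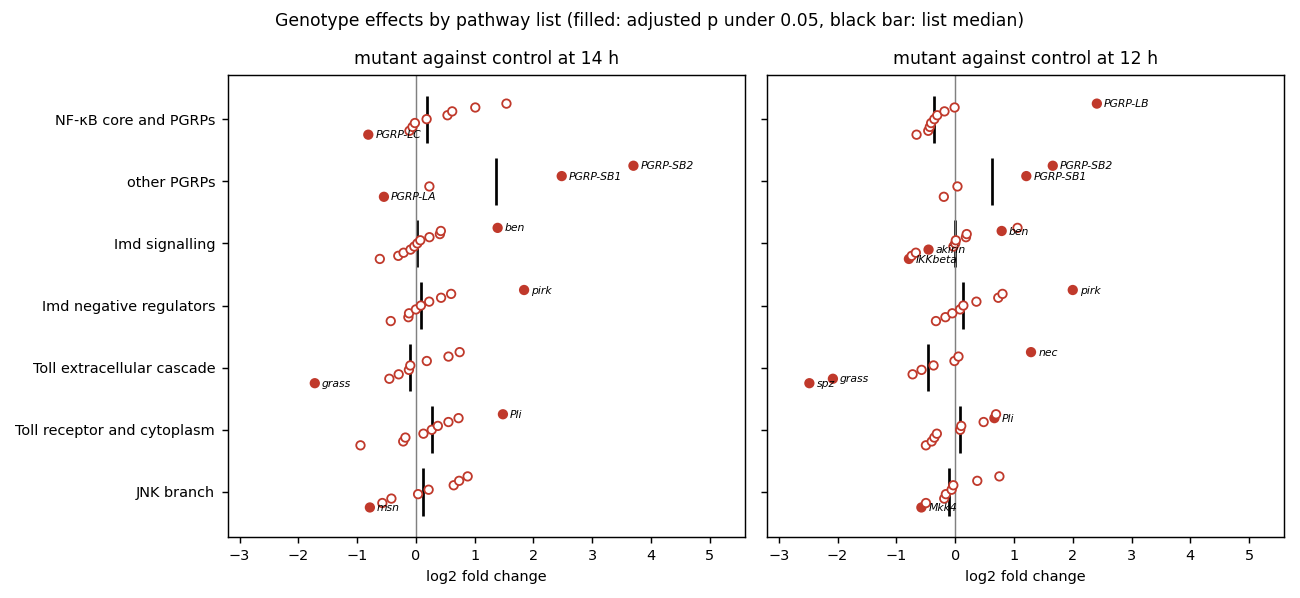
Log2 fold changes of mutant against control at 14 h (left) and 12 h (right) for the 9 members tested and 6 pathway lists; points are genes, filled and named where the edgeR adjusted p is under 0.05, and black bars are list medians. PGRP-SB2, PGRP-SB1, ben, pirk and Pli are filled to the right of 0 in both panels, and spz is the lowest filled gene at 12 h.

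The comparisons of time share libraries with those of genotype. With time, the factors Rel and Dif fell in both genotypes. Between 12 and 14 h 3 of 9 members were lower in mutants (0 higher), against 45.1% of all genes called, and 3 of 9 were lower in controls (0 higher), against 43.2%. With library size alone as the scaling, the mutants instead had 2 lower and 2 higher. Fat body markers moved with time as well: their summed level was 416 to 678 CPM in 14 h mutants against 141 to 254 CPM in 12 h mutants, and 499 to 547 CPM in 14 h controls against 153 to 220 CPM in 12 h controls, without overlap. Of 7 such markers 6 were called higher at 14 h in mutants and 3 in controls. Salivary gland markers had 4 of 8 lower and 1 higher in mutants, and 3 lower and 1 higher in controls. The part of these shifts in the time results was not tested. Dif averaged 649 ± 97.2 CPM in 14 h mutants and 2000 ± 278 CPM in 12 h mutants (SD, n = 3 each; log2 fold change -1.62, SE 0.19, edgeR adjusted p = 4.29e-05). In controls Dif averaged 447 ± 11.1 CPM at 14 h and 2260 ± 391 CPM at 12 h (-2.34, SE 0.19, edgeR adjusted p = 4.38e-06). Rel averaged 47 ± 6.88 CPM in 14 h mutants and 119 ± 23.2 CPM in 12 h mutants (-1.34, SE 0.31, edgeR adjusted p = 0.00372). In controls Rel averaged 30.6 ± 3.44 CPM at 14 h and 163 ± 73.6 CPM at 12 h (-2.41, SE 0.32, edgeR adjusted p = 9.16e-05). The groups did not overlap for either gene, and all 4 calls were kept under every alternative run.

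The third gene to fall was cact in controls and PGRP-LC in mutants. In controls cact averaged 511 ± 26.1 CPM at 14 h and 924 ± 72.6 CPM at 12 h (log2 fold change -0.86, SE 0.15, edgeR adjusted p = 0.000674). In mutants cact averaged 579 ± 29.4 CPM at 14 h and 696 ± 84.5 CPM at 12 h, with overlapping libraries (-0.27, SE 0.15). PGRP-LC averaged 197 ± 13.3 CPM in 14 h mutants and 355 ± 57.9 CPM in 12 h mutants (-0.85, SE 0.17, edgeR adjusted p = 0.00175), and 345 ± 24.6 CPM in 14 h controls and 454 ± 73.9 CPM in 12 h controls (-0.4, edgeR adjusted p = 0.0812). Groups without overlap numbered 3 of 9 in mutants, against 55% of all genes, and 6 of 9 in controls, against 56.4%, each lower at 14 h.

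PGRP-SD in mutants was at 2.47 ± 0.827 CPM at 14 h and 0.945 ± 0.847 CPM at 12 h (SD, n = 3 each; 1.39, SE 0.55, edgeR adjusted p = 0.0577). It was called in 5 of 21 alternatives, among them the fit without the 12 h mutant replicate 1 (2.4, edgeR adjusted p = 0.0076), and over all of them the adjusted p ran from 0.0076 to 0.212.

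The smaller time differences depend on how libraries are scaled. With library size alone the median log2 fold change of all genes was 0.65 in mutants and 0.64 in controls, against 0.14 and 0.12 with TMM. Scaled that way, cact in controls (-0.33) and PGRP-LC in mutants (-0.33) were still lower but not called. In mutants imd (0.55, edgeR adjusted p = 0.0143) and PGRP-SD (1.87, 0.0166) were then called higher at 14 h. The sign turned to higher at 14 h for PGRP-LC, PGRP-LE, PGRP-LB, imd and dl in controls and for PGRP-LE and cact in mutants. Dif (-1.8 in controls, -1.1 in mutants) and Rel (-1.84 and -0.81) were still called as lower.

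Other pathway genes were called in both directions. Beside the calls for 45.1% of all genes in mutants and 43.2% in controls, the median log2 fold change with time was 0.096 in mutants and -0.015 in controls for Imd signalling, -0.06 and -0.27 for the receptor and cytoplasmic Toll genes, and -0.87 and -0.69 for the JNK branch. Over all genes it was 0.14 and 0.12. The genes named here are among the 3 with the smallest p in their list. Myd88, the adaptor of Toll, averaged 96.5 ± 9.94 CPM in 14 h mutants and 1170 ± 179 CPM in 12 h mutants (log2 fold change -3.6, edgeR adjusted p = 2.13e-05), and 58.4 ± 5.21 CPM in 14 h controls and 725 ± 377 CPM in 12 h controls (-3.63, edgeR adjusted p = 1.44e-05). Of the 9 receptor and cytoplasmic Toll genes 4 were lower and 1 higher at 14 h in each genotype. In the Imd signalling list 5 were lower and 3 higher in mutants, and 5 lower and 2 higher in controls, of 11. Diap2, a ubiquitin ligase of the Imd complex, was lower by 3.37 on the log2 scale in mutants and by 3.5 in controls (edgeR adjusted p = 6e-05 and 4.47e-05), and Dredd, the caspase that cleaves Imd and Relish, by 1.32 and 1.37 (0.000229 and 0.000179). Uev1A, the partner of ben in chain building, was higher by 1.89 in mutants and 1.5 in controls (edgeR adjusted p = 9.83e-05 and 0.000498). The JNK branch had 4 lower and 2 higher of 8 in each genotype, with Jra, the fly Jun gene, at 22.5 ± 3.07 CPM in 14 h mutants and 289 ± 74.1 CPM in 12 h mutants (-3.68, edgeR adjusted p = 9.15e-06).

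Between 12 and 14 h, 7 of 11 antimicrobial peptide genes were called higher and 0 lower in mutants (median 1.23). Of all genes tested, 22.6% were called higher in mutants. In controls 4 of the 11 were called higher and 0 lower (median 0.72), against 20.8% of all genes called higher. With 1 library left out these calls numbered 4 to 8 in mutants and 2 to 5 in controls. Dro, which encodes drosocin, was at 807, 1310 and 1380 CPM in 14 h mutants against 3.53, 31.1 and 7.9 CPM in 12 h mutants (log2 fold change 6.35, edgeR adjusted p = 0.00324). In controls Dro was at 1500, 1440 and 1710 CPM at 14 h against 257, 3.61 and 6.4 CPM at 12 h (4.12, edgeR adjusted p = 0.0195), and the 12 h control replicate 1 held the high value. Without that library the Dro difference in controls was 8.22. The attacin genes AttA (5.87 in mutants, 3.58 in controls) and AttB (4.89 and 3.89) were also called higher in both genotypes, and in controls their values without the 12 h control replicate 1 were 7.97 and 8.49. The AttA call in controls ended without the 12 h control replicate 3 or the 14 h control replicate 3 (edgeR adjusted p = 0.0538 and 0.052).

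PGRP-LF rose with time, with a log2 fold change of 2.28 in mutants and 2.09 in controls (edgeR adjusted p = 3.01e-05 and 4.67e-05), while PGRP-LA, at the other end of the same cluster, fell by 1.18 in mutants and 0.83 in controls (0.000137 and 0.00148). PGRP-SB2 rose in mutants (1.87, edgeR adjusted p = 0.000499) and stood at 1160 ± 182 CPM in 14 h controls and 1300 ± 612 CPM in 12 h controls (SD, n = 3 each). In controls spz fell by 2.53 (edgeR adjusted p = 3.1e-05), and in mutants it averaged 19.9 ± 2.68 CPM at 14 h and 22 ± 5.39 CPM at 12 h.

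Over the 12 libraries, the named gene closest in profile to Dif was puc, which encodes the JNK phosphatase Puckered, with a root mean square difference of 0.16 in centred log2 CPM among 2736 candidate genes. Rab5 (0.19) and Gcn5 (0.21) followed. For Rel the closest were Chmp1 (0.19), puc (0.23) and shrb (0.25), and for PGRP-LC cyc (0.14), Syx7 (0.14) and Cht11 (0.16). For comparison, the members' own SD over the libraries was 1.06 for Dif, 1.05 for Rel and 0.48 for PGRP-LC. PGRP-LB had its closest match, JIL-1, at 0.37. These are descriptions of 12 libraries that fall into 4 groups, with the time difference dominating Dif and Rel.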

How the data were processed

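RNA-seq counts per gene came from salivary glands in 12 libraries. Per the submitters' processing notes, the genome build was BDGP6 and the tools named were featureCounts 1.6.3, DESeq2 1.30.1, STAR 2.7.6a and cutadapt 1.16. The authors deposited raw read counts for 17807 genes, and the strand setting of the counting is not given in the sources used here. Positions and exon lengths are from the Ensembl annotation of BDGP6.54. Of the gene identifiers, 17710 were found in that annotation or in a list of gene names. Weck, Fat-spondin and Nplp2 are not analysed here.

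Groups came from the labels. Genes were filtered with filterByExpr, leaving 7584, scaled by TMM and tested with edgeR 4.0.16 (R 4.3.3) by the quasi-likelihood test over all 12 libraries with 4 group means and Benjamini-Hochberg adjustment. SE is the log2 fold change divided by the square root of F. CPM is per counts in tested genes. Alternatives used DESeq2 1.42.0 and limma 3.58.1 (voom), other scalings and filters, single comparisons, a replicate block and fits with libraries left out. The fit was also run on simulated counts drawn from its own model, with changed genes in mutants of a given age and no time effect. That run does not test how the fit handles the time differences in these data.

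The members and lists were chosen with earlier results of these data known. Named were all members, then pathway genes called for genotype (up to 6 per list and comparison), and up to 3 per list for time and for the difference between genotype effects. Likeness used genes with a mean of at least 10 CPM. Same-numbered replicates are not paired in the labels.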

Additional observations from a re-analysis of the deposited data

Results flagged for a closer look

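The genotype effect differed between 14 h and 12 h for 2 pathway genes by a test of the difference itself. For PGRP-SB2 the log2 fold change of mutants over controls was 3.7 at 14 h and 1.66 at 12 h, a difference of 2.04 (SE 0.44, edgeR adjusted p = 0.0254). Over the 21 alternatives for PGRP-SB2 the difference ran from 1.55 to 2.23 and was called in 11, and with a replicate block it was 2.03 with an edgeR adjusted p of 0.0525. For spz the log2 fold change was -0.10 at 14 h and -2.48 at 12 h, a difference of 2.38 (SE 0.39, edgeR adjusted p = 0.00647). It was called in 20 of 21 alternatives for spz, with values of 2.17 to 2.7, and the exception left out both mutant libraries with the highest gut marker sums (2.24, edgeR adjusted p = 0.0561). Groups of 3 libraries were too small to test for single libraries far from the others.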

How the results depend on the processing

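Of 975 alternative values for the members' 45 tests, 897 had the same direction and side of the threshold, 27 newly passed, 7 no longer passed and 44 changed sign. For pathway genes only the 96 results called in the main fit were followed, so none could newly pass. These had 2100 alternative values, of which 282 no longer passed and 4 changed sign. The cause was not tested. Members called at 12 h numbered 2 with DESeq2, 0 in a fit of the compared groups only and 0 to 2 with 1 library left out. At 14 h they numbered 2 with a filter of 5 CPM, 4 with the compared groups only and 1 to 3 with 1 library left out. For the difference between genotype effects they numbered 0 to 2 with 1 library left out, and 1 without both mutant libraries with the highest gut marker sums and the 12 h control replicate 1, an alternative added after seeing the data. Over all genes, only the compared groups gave 459 calls at 12 h against 1199, and 2128 at 14 h against 1153, and DESeq2 gave 338 for the difference against 206. Without both gut-marker libraries there were 677 calls at 12 h and 84 for the difference, and without these and the 12 h control replicate 1 there were 792 at 12 h.

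The values that changed sign were these. PGRP-LE at 12 h was 0.0188 with the 5 CPM filter and 0.0702 without both gut-marker libraries, where it was 0.00842 at 14 h, and its difference of effects was 0.0349 without the 3 libraries. Between 14 and 12 h, library size alone gave 0.256 for PGRP-LB, 0.144 for PGRP-LC, 0.226 for PGRP-LE, 0.158 for imd, 0.22 for dl and 0.0259 for Tab2 in controls, and 0.199 for PGRP-LE, 0.257 for cact, 0.0718 for Tab2, 0.0597 for eff and 0.0587 for akirin in mutants. For imd in mutants it was -0.091 with RLE, -0.0917 with DESeq2, -0.0133 with only the compared groups, -0.064 without both gut-marker libraries and -0.1 without the 3.

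With 1 library left out in each fit, the log2 fold change ran at 14 h from -0.16 to 0.0825 for PGRP-LE, -0.417 to 0.168 for dl and -0.104 to 0.0101 for imd. At 12 h it ran from -1.32 to 0.0317 for PGRP-SD and -0.135 to 0.0684 for PGRP-LE. Between times it ran in controls from -0.273 to 0.398 for PGRP-SD and -0.716 to 0.203 for PGRP-LB, and in mutants from -0.198 to 0.18 for imd and -0.0835 to 0.818 for dl. The difference of effects ran from -0.15 to 0.0931 for PGRP-LE and -1.39 to 0.0285 for PGRP-LB. Without both gut-marker libraries and the 12 h control replicate 1, imd was -0.127 and dl -0.44 at 14 h, and PGRP-SD was 0.405 between times in controls.

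Same-numbered libraries correlated at -0.257 to 0.238 over 18 pairs, with each group's mean removed. Differently numbered libraries were not correlated for comparison, so this range cannot show whether the numbers pair libraries. With a replicate block the members called numbered 1 at 14 h, 1 at 12 h, 3 in each time comparison and 0 for the difference. The block changed no member's call and ended 11 pathway calls. PGRP-SA, PGRP-SD and dl are limited by depth.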
